A study of Mus musculus with 12 samples.

Results

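The insulin-like growth factor (IGF) genes described here comprised 10 genes chosen by name: the ligands Igf1 and Igf2, the receptors Igf1r and Igf2r, and the binding proteins Igfbp2, Igfbp3, Igfbp4, Igfbp5, Igfbp6 and Igfbp7. They were 10 of 26305 genes with an identifier in the count table, and all 10 had enough counts to be tested among 13499 genes. Their RNA was measured by sequencing in mouse embryonic fibroblasts, primary connective tissue cells that were isolated from wild type male C57BL/6 embryos at embryonic day 13.5 and grown in 10% serum and 3% oxygen. Cultures received 10 µM WM-2474, which the labels call an inactive control, or DMSO, the solvent. RNA was taken at 240 h and at 96 h, which gave 4 groups of 3 libraries: WM-2474 at 240 h, DMSO at 240 h, WM-2474 at 96 h and DMSO at 96 h. An untreated group and an active compound were not analysed here. The labels number the replicates without saying whether they were separate isolations of cells, so the p-values measure the spread between these samples.

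IGF1 and IGF2 are secreted peptides that act on growth, survival and differentiation through the IGF1 receptor, a tyrosine kinase that signals through docking proteins to PI3K and AKT. The IGF2 receptor has no kinase domain; it takes up IGF2 and carries it, like lysosomal enzymes, to the lysosome. Binding proteins hold the ligands outside the cell, extend their life and limit or hand over their access to the receptor, and proteases release the ligand by cutting them. Cultured fibroblasts are a known source of Igf2 and of several binding proteins. In the mouse, Igf2 is expressed from the paternal copy and its neighbour H19, a long noncoding RNA, from the maternal copy, while Igf2r is expressed mainly from the maternal copy.

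Library totals were 7313007 to 26019167 counts, and 3 counts corresponded to between 0.115 and 0.410 CPM, the counts of a gene scaled to the total of its library. CPM here are scaled with TMM factors, which were 0.943 to 0.967 at 240 h and 1.04 to 1.05 at 96 h. All 10 fibroblast markers were detected, and their summed level was 48124 to 52723 CPM at 240 h, against 31395 to 37316 CPM at 96 h. The 12 B-lineage markers reached sums of 10.5 and 11.4 CPM in replicates 1 and 2 of DMSO at 240 h, against at most 2.78 CPM elsewhere, with Ms4a1 at 0 in all libraries. With both left out, a single DMSO library remains at 240 h, which the fit assumes to vary like the libraries of the other groups. Under that assumption the changes over time with DMSO described below passed for Igf2, Igf2r, Igfbp4, Igfbp5 and Igfbp7 and did not pass for Igf1r. The 7 skeletal muscle markers summed to 249 to 331 CPM at 240 h, against 135 to 160 CPM at 96 h. Of these, Acta1 made up 222 to 302 CPM at 240 h and 113 to 139 CPM at 96 h, and Ckm was at 0 throughout. Sums at 240 h and at 96 h were 5.1 to 8.03 and 6.81 to 8.8 CPM for macrophage, 2.29 to 4.81 and 5.1 to 7.94 CPM for endothelial, and 1.27 to 2.54 and 1.85 to 5.85 CPM for epithelial markers. Neural markers summed to 163 to 187 CPM at 240 h and 154 to 177 CPM at 96 h, and hepatocyte and red cell markers to no more than 1.36 CPM. The part of these markers in the results below was not tested.

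In GRCm38.p6 coordinates from RefSeq, 4 members lie near another gene of the family or near H19. Other imprinted partners were not looked for. Igfbp2 (chr1:72824480-72852474, plus strand) and Igfbp5 (chr1:72858065-72874865, minus strand) are neighbours with 5590 bases between them. Igf2 (chr7:142650768-142666816, minus strand) lies 72621 bases from H19, and Igfbp3 (chr11:7206086-7215498, minus strand) lies 3539 bases from Igfbp1. The other members are Igf1 (chr10:87858265-87937047, plus strand), Igf1r (chr7:67952257-68233668, plus strand), Igf2r (chr17:12682406-12769706, minus strand), Igfbp4 (chr11:99040005-99052655, plus strand), Igfbp6 (chr15:102144186-102149512, plus strand) and Igfbp7 (chr5:77349240-77408045, minus strand). Promoter windows of 300 bases, from 250 before to 50 after an annotated start, are printed 5′ to 3′ for the 5 members that changed with time in the same direction in both treatments, so that the sequences at the start of these genes can be compared. Capitals mark matches on either strand. The GC box was searched as GGGCGG, and 35.7% of 32851 windows of the same length held it. For the TATA box, TATAAA, the share was 13.6%. For the CCAAT box, searched by those letters, it was 37.4%. The Igf2 window, chr7:142657447-142657746 (minus strand), is the one nearest the 3′ end among 4 for this gene and holds 2 GC boxes and 1 CCAAT on the opposite strand.
Igf2: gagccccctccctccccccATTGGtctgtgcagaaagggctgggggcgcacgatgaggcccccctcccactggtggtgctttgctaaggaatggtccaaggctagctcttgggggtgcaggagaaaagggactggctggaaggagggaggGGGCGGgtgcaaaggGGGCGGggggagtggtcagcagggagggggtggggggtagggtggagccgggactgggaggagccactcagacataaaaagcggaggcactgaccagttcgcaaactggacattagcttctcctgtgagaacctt
The Igfbp4 window, chr11:99040994-99041293 (plus strand), holds a TATA box 28 bases before the start.
Igfbp4: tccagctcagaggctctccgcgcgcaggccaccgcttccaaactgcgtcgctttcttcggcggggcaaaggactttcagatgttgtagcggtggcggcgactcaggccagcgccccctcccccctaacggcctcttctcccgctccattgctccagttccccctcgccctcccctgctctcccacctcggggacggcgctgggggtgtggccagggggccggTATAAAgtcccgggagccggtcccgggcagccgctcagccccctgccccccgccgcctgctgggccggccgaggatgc
The Igfbp5 window, chr1:72874816-72875115 (minus strand), holds none of these motifs.
Igfbp5: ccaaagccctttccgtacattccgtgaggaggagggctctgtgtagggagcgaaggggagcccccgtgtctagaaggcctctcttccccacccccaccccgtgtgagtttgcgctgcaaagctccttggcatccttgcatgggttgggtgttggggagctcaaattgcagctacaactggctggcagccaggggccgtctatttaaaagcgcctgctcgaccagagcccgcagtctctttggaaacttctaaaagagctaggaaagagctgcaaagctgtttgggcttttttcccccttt
The Igf2r window, chr17:12769657-12769956 (minus strand), holds 3 GC boxes, 2 of them directly joined.
Igf2r: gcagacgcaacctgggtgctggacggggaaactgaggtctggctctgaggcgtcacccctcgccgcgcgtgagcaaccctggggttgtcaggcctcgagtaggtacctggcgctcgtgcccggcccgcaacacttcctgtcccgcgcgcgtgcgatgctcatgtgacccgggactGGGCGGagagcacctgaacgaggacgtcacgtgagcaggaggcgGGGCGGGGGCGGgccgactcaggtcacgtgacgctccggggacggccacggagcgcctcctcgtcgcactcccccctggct
The Igfbp7 window, chr5:77407996-77408295 (minus strand), holds 4 GC boxes, 1 of them on the opposite strand.
Igfbp7: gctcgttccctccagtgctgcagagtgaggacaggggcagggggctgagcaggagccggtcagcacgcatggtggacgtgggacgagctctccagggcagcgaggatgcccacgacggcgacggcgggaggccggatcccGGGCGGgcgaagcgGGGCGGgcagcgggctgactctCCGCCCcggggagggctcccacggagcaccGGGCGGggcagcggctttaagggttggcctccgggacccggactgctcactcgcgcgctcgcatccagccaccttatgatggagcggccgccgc
The printed windows of the 3 members that fell (Igf2, Igfbp4, Igfbp5) thus share none of the motifs searched. Those of both members that rose (Igf2r, Igfbp7) hold GC boxes, as do the Igf2 window and 35.7% of all windows. Among members outside these 5, a window of Igfbp2 holds 3 GC boxes and that of Igf1r holds 2. The Igf2 windows not printed hold 0, 0 and 1 GC boxes, at a GC content of 52.3%, 49.7% and 64.7%. The GC content of the printed windows was 73.3% for Igfbp7, 71.3% for Igfbp4, 70.7% for Igf2r, 63.3% for Igf2 and 56.3% for Igfbp5. The median over all windows was 52.7%. Counts per gene do not tell which start was used.

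The levels of the 10 genes, set per kilobase of exon (RPKM) so that genes can be compared, spanned nearly 3 orders of magnitude. Igfbp7, a secreted protein that binds IGFs weakly, was the highest member in every group, at 928 ± 44 RPKM with WM-2474 and 865 ± 62.2 RPKM with DMSO at 240 h, and at 488 ± 22.2 RPKM with WM-2474 and 518 ± 47.6 RPKM with DMSO at 96 h (SD, n = 3). It stood above 99.5% or more of the tested genes in each group. Igf1 was the lowest member in every group, with means of 0.93 to 1.18 RPKM, above 11.2% to 14.2% of the tested genes. Between these ends the order differed with time. At 96 h Igf2 was second, with 258 ± 50.8 RPKM in WM-2474 and 246 ± 51.5 RPKM in DMSO cultures, and its libraries overlapped those of Igfbp5, the next. At 240 h Igfbp5 was second and Igfbp2 next, and Igf2 was at rank 4 with 77.5 ± 9.42 RPKM in WM-2474 and at rank 6 with 61.2 ± 5.18 RPKM in DMSO cultures. Neighbours whose libraries overlapped at 240 h were Igf2 with Igfbp6, Igfbp6 with Igf2r and Igfbp4 with Igfbp3 in WM-2474 cultures, and Igfbp2 with Igfbp6 in DMSO cultures. At 96 h Igfbp6, Igfbp4, Igfbp2 and Igf2r formed a run of overlapping neighbours in both treatments, as did Igfbp3 with Igf1r. Igf1r was at rank 9 in every group, with means of 16.6 to 18.7 RPKM.

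**Figure D1:**
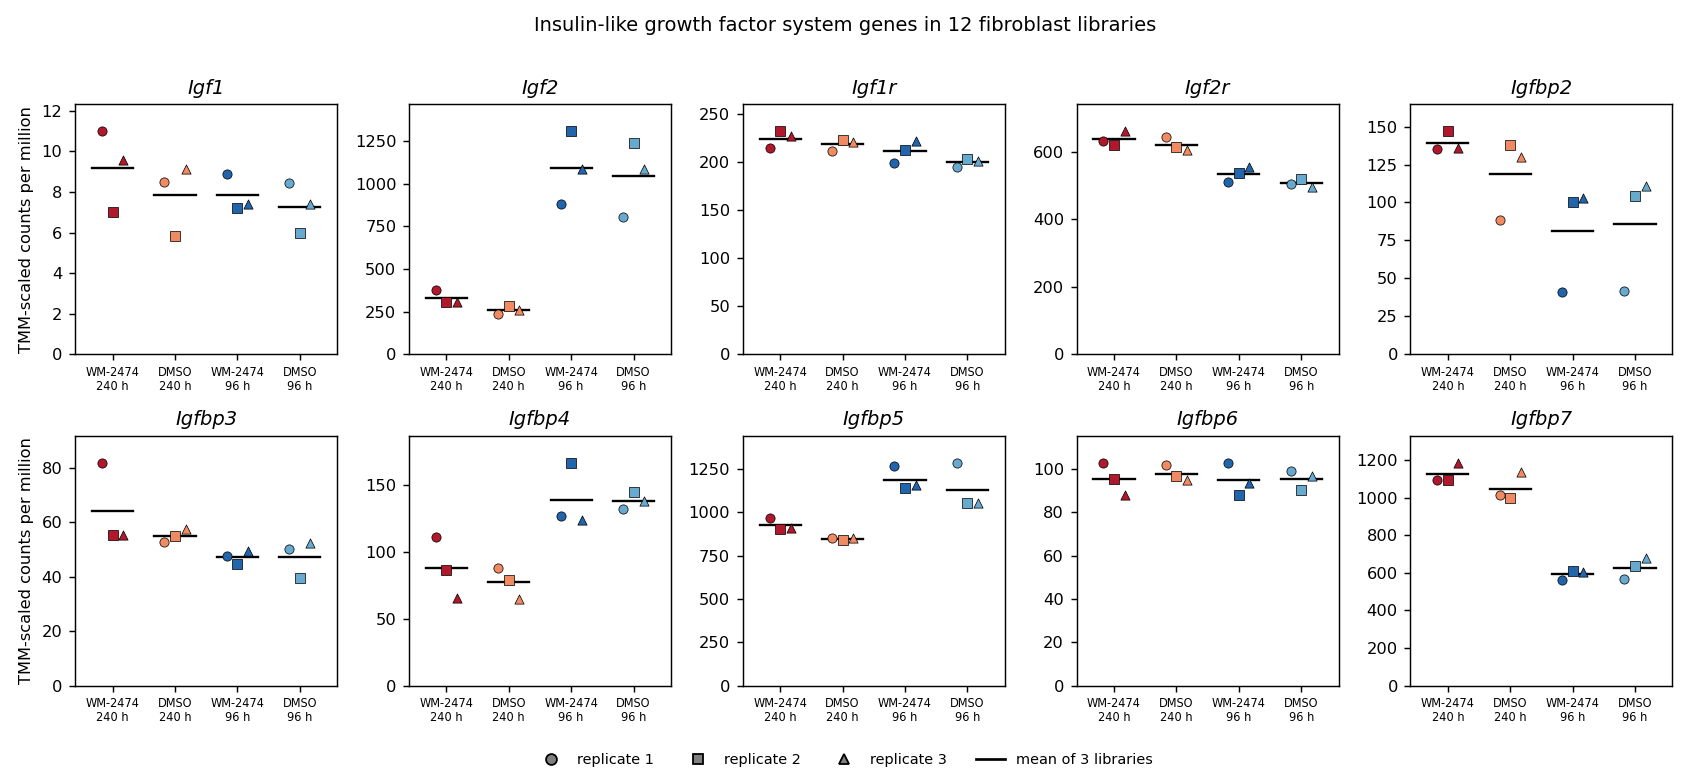
TMM-scaled CPM of the 10 genes in each of the 12 libraries. Each panel has its own vertical axis from 0, marker shapes give the replicate number and bars the mean of 3 libraries; Igf2 lies at 238 to 374 CPM in all 6 libraries at 240 h, below the 807 to 1309 CPM at 96 h, and Igfbp7 at 998 to 1187 CPM, above 561 to 681 CPM.

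Members differed in the contrast between the 2 times. In this design, time in culture cannot be told apart from anything else that differed between the libraries of the 2 times. Between 240 h and 96 h, 2 of the 10 members rose and 3 fell with WM-2474, and 3 rose and 3 fell with DMSO. Igf2, Igfbp4 and Igfbp5 fell and Igf2r and Igfbp7 rose in both treatments, and Igf1r rose with DMSO. The test was edgeR's quasi-likelihood test with Benjamini-Hochberg adjustment over 13499 genes and a threshold of 0.05, by which 15.9% of all genes rose and 14.8% fell with WM-2474, and 17.5% rose and 17.3% fell with DMSO. Over both treatments together 4 members rose and 3 fell, where 23% of all genes rose and 23.6% fell. The median log2 fold change of the members was 0.14 with either treatment, against all-gene medians within 0.01 of 0. In whole-culture RNA, fewer cells of a kind and less RNA per cell cannot be told apart.

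**Figure D2:**
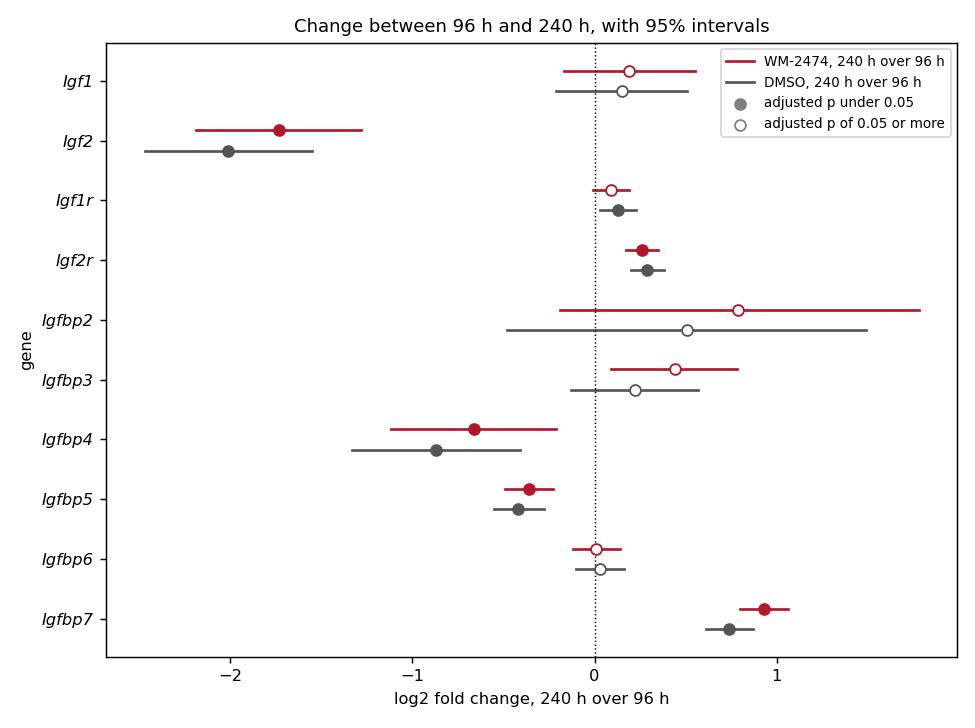
Log2 fold change of each gene between 240 h and 96 h, with WM-2474 above and DMSO below for each gene. Lines are 95% intervals and filled points have an adjusted p under 0.05; the Igf2 points lie at -1.73 and -2.01, the Igfbp7 points at 0.93 and 0.74.

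Among the ligands, Igf2, the growth factor of fetal tissues, showed the largest change of the 10 genes. It had 374, 303 and 308 CPM in the WM-2474 libraries at 240 h, against 879, 1309 and 1085 CPM in the WM-2474 libraries at 96 h. In DMSO libraries it had 238, 281 and 258 CPM at 240 h, against 807, 1237 and 1088 CPM at 96 h. All 6 libraries at 240 h were below all 6 at 96 h, with a gap that on the log2 scale was wider than the spread within either time. Igf2 RNA fell to 0.301 times its 96 h level with WM-2474 (log2 fold change -1.73 ± 0.20 SE, adjusted p = 0.000197, edgeR) and to 0.248 times with DMSO (-2.01 ± 0.20, adjusted p = 7.82e-05, edgeR). Replicate 1 was the lowest library at 96 h in both treatments, by 0.29 below its group mean with WM-2474 and 0.35 with DMSO on the log2 scale. Of the 31-base words in Igf2 transcripts, 61.9% also occur in Gm49394, an annotated read-through locus, so reads of these cannot be told apart, and the opposite-strand gene Igf2os had 3 to 61 counts per library. Igf1, the ligand made mainly by liver after birth, stayed low: it had 11, 7.01 and 9.6 CPM with WM-2474 at 240 h, against 8.91, 7.23 and 7.43 CPM at 96 h. DMSO cultures gave 8.5, 5.84 and 9.15 CPM at 240 h, against 8.44, 5.98 and 7.4 CPM at 96 h. The times overlapped in both treatments, and the log2 fold changes of 0.19 ± 0.17 with WM-2474 and 0.15 ± 0.17 with DMSO did not pass the test. Per length, Igf2 was 51.6 to 88.9 times as high as Igf1 in the libraries at 240 h, against 176 to 382 times at 96 h.

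Both receptors were expressed at steady levels with small changes. Igf2r, which clears IGF2, had 634, 622 and 662 CPM with WM-2474 at 240 h, against 510, 538 and 557 CPM at 96 h. The DMSO libraries had 645, 614 and 606 CPM at 240 h, against 506, 519 and 497 CPM at 96 h. Every library at 240 h was above every library at 96 h. It rose 1.2-fold with WM-2474 (log2 0.26 ± 0.04, adjusted p = 6.47e-05, edgeR) and 1.22-fold with DMSO (0.29 ± 0.04, adjusted p = 1.21e-05, edgeR). Igf1r, the signalling receptor, had 214, 232 and 227 CPM with WM-2474 at 240 h, against 199, 212 and 222 CPM at 96 h, which overlapped. With DMSO the values were 211, 223 and 221 CPM at 240 h, against 195, 203 and 201 CPM at 96 h, which did not overlap. Its log2 fold change was 0.09 ± 0.05 with WM-2474 (adjusted p = 0.165, edgeR) and 0.13 ± 0.05 with DMSO (adjusted p = 0.0328, edgeR), and the difference between these was not past the threshold (-0.04 ± 0.07, adjusted p = 0.988, edgeR). The Igf1r call with DMSO was lost without DMSO 96 h replicate 1 or 3 (adjusted p = 0.0919 and 0.0631, edgeR) or DMSO 240 h replicate 2 or 3 (0.105 and 0.111), and with only DMSO 240 h replicate 3 kept in its group (0.139, with the spread taken from the other groups). Over both treatments Igf1r rose (0.11 ± 0.03, adjusted p = 0.00861, edgeR), but on library totals without TMM factors the value was -0.02. The ratio of Igf2 to Igf2r RNA per length was 0.981 to 1.24 with WM-2474 and 0.776 to 0.967 with DMSO at 240 h, against 3.63 to 5.13 with WM-2474 and 3.36 to 5.02 with DMSO at 96 h. The 2 RNAs were thus at like levels at 240 h, while Igf2 was the higher one at 96 h.

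Insr, the insulin receptor, which also binds IGF2 and pairs with the IGF1 receptor, had 55.7 to 60.5 CPM at 240 h, against 48.7 to 54.5 CPM at 96 h. It rose with WM-2474 (log2 0.21 ± 0.06, adjusted p = 0.00958, edgeR), though not without WM-2474 96 h replicate 2 (0.16, adjusted p = 0.075, edgeR) nor on library totals (0.07). With DMSO it was at 0.15 ± 0.06 (adjusted p = 0.0553, edgeR). The remaining relatives were at the limit of detection: Igfbp1 and Ins2 had 0 counts in all 12 libraries, and Insrr, Igfals and Igfbpl1 had at most 2 in any. Igfals encodes the subunit that holds IGF and IGFBP3 in the blood, and Igfbp1 is a binding protein made by liver.

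The binding proteins moved in different directions. Igfbp7 had 1094, 1097 and 1187 CPM with WM-2474 at 240 h, against 561, 611 and 603 CPM at 96 h. With DMSO it had 1014, 998 and 1136 CPM at 240 h, against 567, 638 and 681 CPM at 96 h. The lowest library at 240 h was well above the highest at 96 h. Igfbp7 rose 1.9-fold with WM-2474 (log2 0.93 ± 0.06, adjusted p = 3.93e-10, edgeR) and 1.67-fold with DMSO (0.74 ± 0.06, adjusted p = 1.16e-08, edgeR). Polr2b overlaps Igfbp7 on the opposite strand and had 647 to 2348 counts per library; whether the authors' counting used strand was not given in the sources used here.

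Igfbp5, a matrix-bound IGF carrier of connective tissue, fell. It had 968, 904 and 909 CPM with WM-2474 at 240 h, against 1267, 1138 and 1159 CPM at 96 h. In DMSO libraries it had 851, 840 and 854 CPM at 240 h, against 1287, 1055 and 1052 CPM at 96 h. The times did not overlap in either treatment, and replicate 1 was the highest library at 96 h in both. The fall was to 0.78 times with WM-2474 (log2 -0.36 ± 0.06, adjusted p = 0.000194, edgeR) and to 0.75 times with DMSO (-0.42 ± 0.06, adjusted p = 3.67e-05, edgeR).

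Igfbp4, which inhibits IGF action until it is cut by the protease PAPP-A, also fell. It had 111, 86.6 and 65.7 CPM with WM-2474 at 240 h, against 127, 167 and 124 CPM at 96 h. DMSO cultures gave 88.2, 79.2 and 64.7 CPM at 240 h, against 132, 145 and 138 CPM at 96 h. The times did not overlap, but at 240 h the libraries were spread, with replicate 1 highest and replicate 3 lowest in both treatments. Its log2 fold change was -0.66 ± 0.20 with WM-2474 (adjusted p = 0.0346, edgeR) and -0.87 ± 0.20 with DMSO (adjusted p = 0.0101, edgeR). The WM-2474 call was lost without any 1 of 7 libraries, at log2 fold changes of -0.73 to -0.50: replicate 1 or 2 of WM-2474 at 96 h (adjusted p = 0.0523 and 0.111, edgeR), DMSO 96 h replicate 2 or 3 (0.0523 and 0.053), WM-2474 240 h replicate 2 or 3 (0.0997 and 0.0865) and DMSO 240 h replicate 2 (0.0509). It was also lost in a fit of the WM-2474 libraries alone (0.121) and with only DMSO 240 h replicate 3 kept in its group (0.0547, spread from the other groups), while the DMSO call was lost without DMSO 240 h replicate 3 (-0.73, 0.0525). Of the 31-base words in Igfbp4 transcripts, 5.78% also occur in other genes.

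Igfbp3, the main IGF carrier of blood, had 82, 55.5 and 55.4 CPM with WM-2474 at 240 h, against 47.5, 44.7 and 49.5 CPM at 96 h. The DMSO libraries had 53, 55 and 57.5 CPM at 240 h, against 50.2, 39.6 and 52.4 CPM at 96 h. The times did not overlap in either treatment, and WM-2474 240 h replicate 1 stood above the other 2 libraries of its group. The log2 fold change of 0.44 ± 0.15 with WM-2474 (adjusted p = 0.0589, edgeR) and of 0.22 ± 0.15 with DMSO (adjusted p = 0.314, edgeR) did not pass, but Igfbp3 rose over both treatments (0.33 ± 0.11, adjusted p = 0.0325, edgeR). Without WM-2474 240 h replicate 1 the change was 0.23 with WM-2474 and 0.22 with DMSO, and both passed (adjusted p = 0.0472 and 0.0276, edgeR). The value with WM-2474 also passed without DMSO 96 h replicate 2 (0.43, adjusted p = 0.0328, edgeR) and without WM-2474 240 h replicate 2 or 3 (0.54 and 0.52, adjusted p = 0.031 and 0.0384). The call over both treatments was lost without any 1 of 6 libraries, at 0.31 to 0.35: WM-2474 96 h replicates 1, 2 and 3 (adjusted p = 0.0693, 0.0788 and 0.0539, edgeR), DMSO 96 h replicate 1 (0.0565) and DMSO 240 h replicates 2 and 3 (0.0579 and 0.0851).

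Igfbp2, a carrier of fetal tissues, had 135, 147 and 136 CPM with WM-2474 at 240 h, against 40.8, 100 and 103 CPM at 96 h. With DMSO the values were 88.1, 138 and 130 CPM at 240 h, against 41.8, 104 and 111 CPM at 96 h. Replicate 1 was far below replicates 2 and 3 at 96 h in both treatments, by 0.88 under its group mean with WM-2474 and 0.90 with DMSO on the log2 scale, and it was also the lowest DMSO library at 240 h. The times did not overlap with WM-2474 and overlapped with DMSO. The changes of 0.79 ± 0.43 with WM-2474 (95% interval -0.19 to 1.78) and 0.51 ± 0.43 with DMSO (-0.48 to 1.49) did not pass the test (adjusted p = 0.21 and 0.413, edgeR). Igfbp6, which prefers IGF2 over IGF1, had 103, 95.4 and 88 CPM with WM-2474 at 240 h, against 103, 88.1 and 93.4 CPM at 96 h. With DMSO it had 102, 96.9 and 94.8 CPM at 240 h, against 99.2, 90.2 and 97 CPM at 96 h. The libraries overlapped throughout, and with TMM factors the log2 intervals were -0.12 to 0.14 with WM-2474 and -0.10 to 0.16 with DMSO. In alternative fits the log2 fold change was -0.13 to 0.07 with WM-2474 and -0.09 to 0.06 with DMSO.

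**Figure D3:**
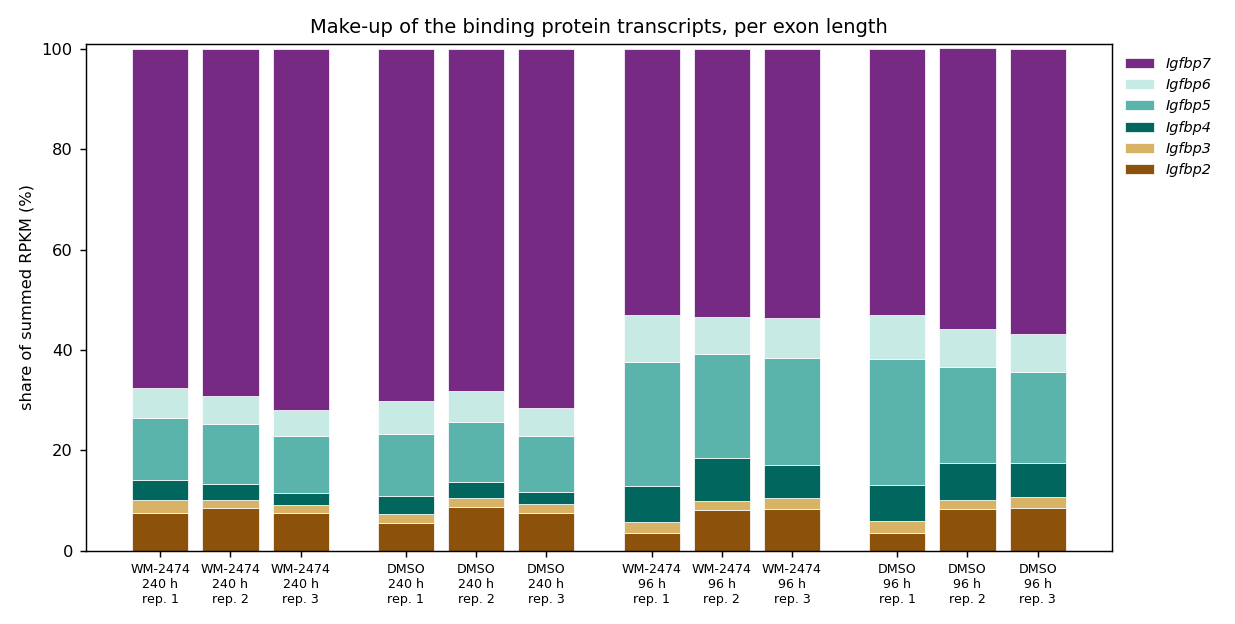
Share of each binding protein gene in the summed RPKM of the 6 binding protein genes, 1 bar per library. Igfbp7 makes up 67.5 to 72% of the sum in the 6 libraries at 240 h and 53.1 to 56.8% in the 6 at 96 h, and Igfbp5 11.2 to 12.4% and 18.2 to 25%.

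The make-up of the binding protein RNA differed between times. The summed level of the 6 genes was 1308 to 1359 RPKM with WM-2474 and 1191 to 1308 RPKM with DMSO at 240 h, against 870 to 941 RPKM with WM-2474 and 880 to 988 RPKM with DMSO at 96 h. Igfbp7 took 67.5 to 72% of it at 240 h, against 53.1 to 56.8% at 96 h. Igfbp5 took 11.2 to 12.4% at 240 h and 18.2 to 25% at 96 h, and Igfbp4 2.34 to 4.02% and 6.48 to 8.6%. Igfbp6 took 5.02 to 6.67% at 240 h and 7.26 to 9.2% at 96 h. None of these 4 shares overlapped between times, although the level of Igfbp6 itself did, since its share is taken of a sum that was higher at 240 h. Shares of Igfbp2 and Igfbp3 overlapped, at 5.56 to 8.62% and 1.67 to 2.51% at 240 h, against 3.52 to 8.45% and 1.72 to 2.33% at 96 h.

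None of the 10 genes passed the test between WM-2474 and DMSO. The count called was 0 at 96 h, where 0% of all genes rose and 0% fell, and 0 at 240 h, where 0.0296% rose and 0% fell. It was also 0 for the average of both times (0.0148% of all genes rose, 0% fell) and for the difference of the WM-2474 effect between times (0% and 0%). At an unadjusted p under 0.05 edgeR found 0 members at 96 h, 0 at 240 h, 1 for the average and 1 for the difference, where 2.1%, 8.14%, 5.65% and 4.63% of all genes had such a p. DESeq2 found 0, 0, 1 and 1 members (0.807%, 5.16%, 3.45% and 2.2% of all genes). For limma-voom with quality weights the counts were 0, 1, 2 and 1 (2.96%, 8.56%, 5.77% and 5.97% of all genes). Neither called a member after adjustment, though DESeq2 gave no adjusted p for 2 members at 240 h. The edgeR pair were Igfbp5 for the average (log2 0.10 ± 0.04, adjusted p = 0.873) and Igfbp7 for the difference (0.19 ± 0.09, adjusted p = 0.977). The median over members was 0.04 at 96 h and 0.13 at 240 h, against 0.00 over all genes.

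At 240 h the largest point estimate was that of Igf2, with 374, 303 and 308 CPM in WM-2474 and 238, 281 and 258 CPM in DMSO libraries. All 3 WM-2474 libraries were above the 3 DMSO libraries. The log2 fold change was 0.34 ± 0.20, with a 95% interval of -0.12 to 0.80 (adjusted p = 0.697, edgeR), and it was also 0.34 against DMSO 240 h replicate 3 alone (adjusted p = 0.994, edgeR, with the spread taken from the other groups). Igfbp5 was the only other member without overlap at 240 h, at 968, 904 and 909 CPM in WM-2474 and 851, 840 and 854 CPM in DMSO libraries (0.13 ± 0.06, interval -0.01 to 0.26, adjusted p = 0.623, edgeR). An exact permutation of 3 against 3 libraries cannot give a p below 0.1. The share of all genes without overlap was not counted, so the lack of overlap in Igf2 and Igfbp5 cannot be set against it. At 96 h every member overlapped between treatments.

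The intervals show what these libraries can bound in the fit without a replicate block. Spread that same-numbered libraries share is left in these intervals. For Igf1r they were -0.06 to 0.14 at 240 h and -0.02 to 0.18 at 96 h on the log2 scale, and for Igf2r -0.05 to 0.13 at 240 h and -0.02 to 0.17 at 96 h. Igfbp6 lay within -0.16 to 0.10 and -0.14 to 0.12, and Igfbp7 within -0.03 to 0.23 and -0.22 to 0.04, at 240 h and 96 h in this order. They were wide for Igfbp2, at -0.75 to 1.19 at 240 h and -1.07 to 0.93 at 96 h. Igf1 (-0.22 to 0.51 and -0.25 to 0.45), Igfbp3 (-0.14 to 0.55 and -0.36 to 0.33) and Igfbp4 (-0.26 to 0.70 and -0.42 to 0.44) were between these. The Igfbp2 interval at 96 h holds a spread that both treatments shared. Its replicates 1, 2 and 3 had 40.8, 100 and 103 CPM with WM-2474, and 41.8, 104 and 111 CPM with DMSO. Same-numbered libraries were thus closer to each other than this interval shows. A change of the size seen in Igf2 over time lay outside the intervals of all 10 genes at both times.

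**Figure D4:**
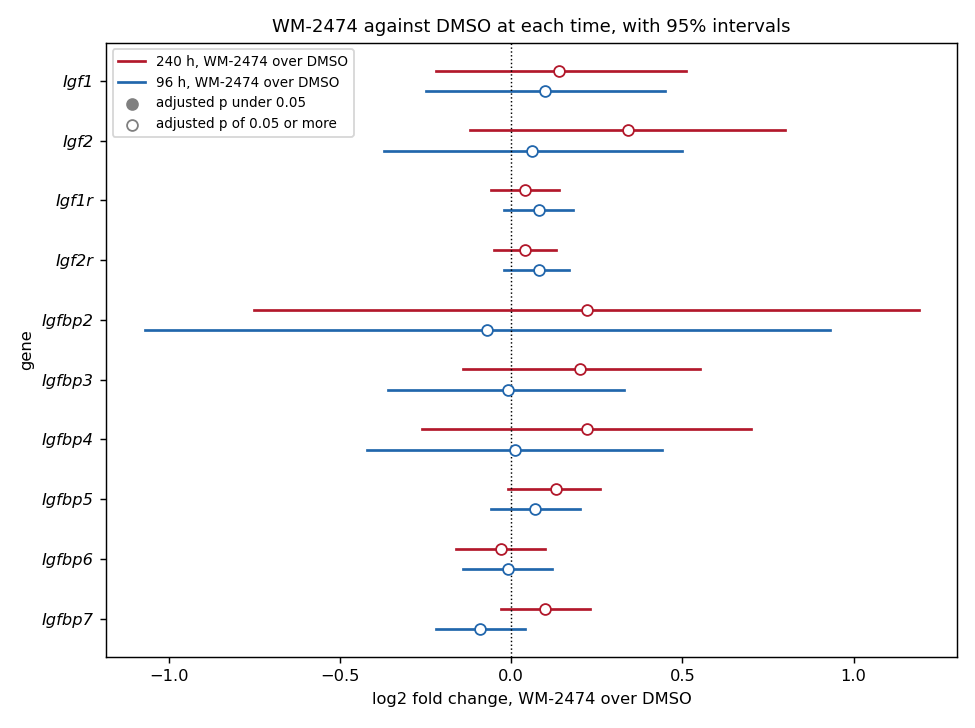
Log2 fold change of each gene between WM-2474 and DMSO, with 240 h above and 96 h below for each gene. Lines are 95% intervals from the fit without a replicate block, and all points are open (adjusted p of 0.05 or more). The intervals are narrow for Igf1r, Igf2r, Igfbp6 and Igfbp7 and wide for Igfbp2.

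Genes that act on the binding proteins changed with time alongside them. Of 6 listed proteases and protease inhibitors, all tested, 5 rose and 0 fell with WM-2474, and 5 rose and 1 fell with DMSO, with median log2 fold changes of 0.74 and 0.73. Among all genes 15.9% rose and 14.8% fell with WM-2474, and 17.5% rose and 17.3% fell with DMSO. Pappa, whose product cuts IGFBP4, had 126, 168 and 152 CPM with WM-2474 at 240 h, against 57.3, 58.1 and 52.2 CPM at 96 h. In DMSO libraries it had 145, 169 and 139 CPM at 240 h, against 56.4, 58.6 and 47.2 CPM at 96 h. Libraries of the 2 times were far apart, and Pappa rose 2.67-fold with WM-2474 (log2 1.42 ± 0.12, adjusted p = 4.74e-06, edgeR) and by 1.47 ± 0.12 with DMSO (adjusted p = 3.26e-06). Relative to Igfbp4, Pappa RNA per length was 0.213 to 0.435 with WM-2474 and 0.308 to 0.402 with DMSO at 240 h, against 0.0651 to 0.0846 with WM-2474 and 0.0641 to 0.0799 with DMSO at 96 h. Htra1 and Htra3, secreted serine proteases, rose as well, Htra1 by 0.77 ± 0.07 with WM-2474 and 0.72 ± 0.07 with DMSO, and Htra3 by 0.75 ± 0.09 with either. Htra1 had 226 to 257 CPM at 240 h, against 134 to 164 CPM at 96 h, and Htra3 27.6 to 30.8 CPM, against 15.7 to 19.2 CPM. Pappa2, a relative of Pappa that is named here after its values were seen, had 2.29 to 2.93 CPM at 240 h, against 1.2 to 2.18 CPM at 96 h (log2 0.74 ± 0.26 with WM-2474, adjusted p = 0.0306, and 0.83 ± 0.25 with DMSO, adjusted p = 0.012, edgeR). Its call with WM-2474 was lost without WM-2474 96 h replicate 1 or 3 (adjusted p = 0.169 and 0.0922, edgeR) or WM-2474 240 h replicate 1 or 3 (0.0859 and 0.089), with DESeq2 (0.0886) and on library totals (0.0617). It was also lost in a fit of the WM-2474 libraries alone with the replicate number as a block (0.0656, edgeR). With DMSO the call was lost without DMSO 96 h replicate 3 (0.0542), and in these cases 4 of the 6 genes rose. With only DMSO 240 h replicate 3 kept in its group, the log2 fold change of Pappa2 with DMSO was 0.79, against 0.83 with all libraries. No call of Pappa2 is given for that fit, which holds 1 DMSO library at 240 h.

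The stanniocalcins, secreted inhibitors of PAPP-A, differed from each other. Stc1 had 12, 13.4 and 12.6 CPM with WM-2474 at 240 h, against 9.71, 8.99 and 9.31 CPM at 96 h. DMSO cultures gave 10.8, 12.4 and 10.3 CPM at 240 h, against 7.85, 7.21 and 7.03 CPM at 96 h. Stc1 thus rose, by 0.45 ± 0.11 with WM-2474 (adjusted p = 0.00401, edgeR) and 0.56 ± 0.12 with DMSO (adjusted p = 0.000577). Stc2 had 32.3, 29.7 and 28.9 CPM with WM-2474 at 240 h, against 27.1, 36.7 and 31.8 CPM at 96 h, which overlapped. The DMSO libraries had 23.1, 25.8 and 26.7 CPM at 240 h, against 32.2, 36.6 and 38.1 CPM at 96 h, and it fell by 0.48 on the log2 scale (SE 0.10, adjusted p = 0.000396, edgeR). The difference between treatments in the change of Stc2 was 0.41 ± 0.14 and was not past the threshold (adjusted p = 0.977, edgeR).

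**Figure D5:**
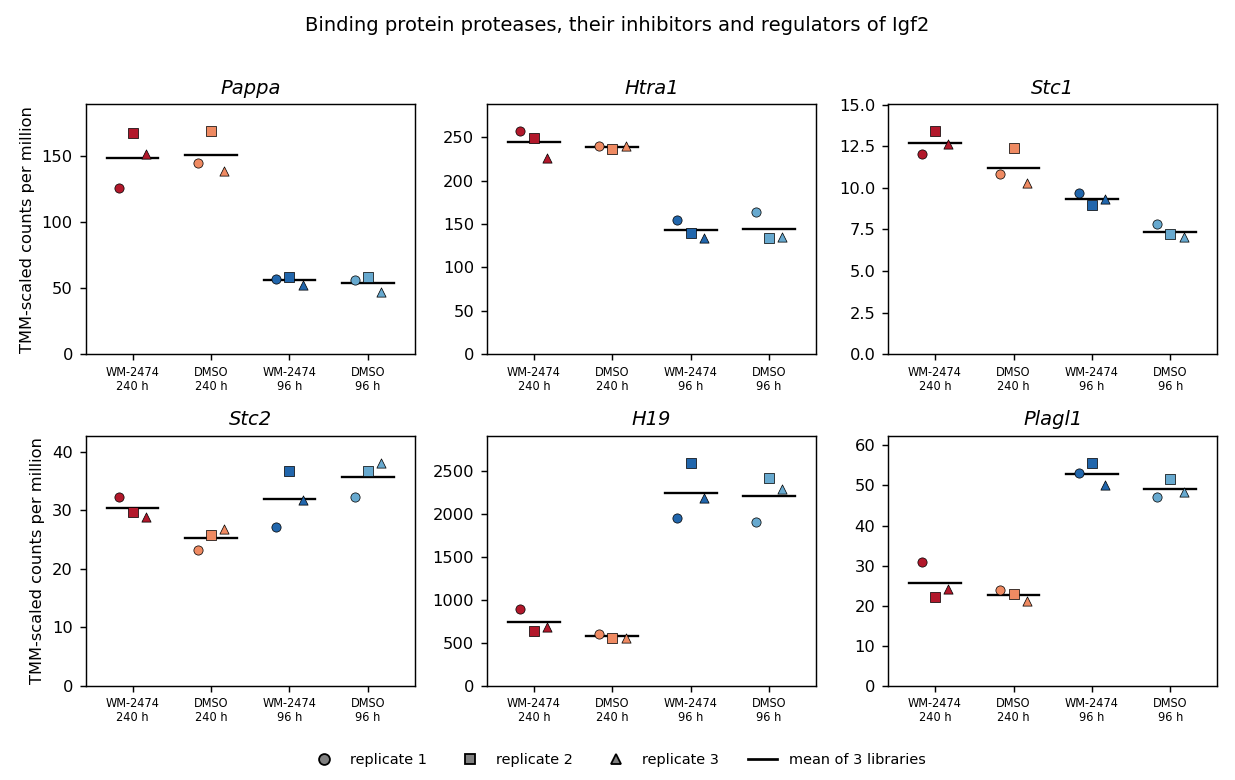
TMM-scaled CPM of Pappa, Htra1, Stc1, Stc2, H19 and Plagl1 in each library; axes start at 0, marker shapes give the replicate number and bars the mean of 3 libraries. Pappa and Htra1 are higher in all 6 libraries at 240 h (126 to 169 and 226 to 257 CPM) than at 96 h (47.2 to 58.6 and 134 to 164 CPM), and H19 and Plagl1 are lower (556 to 892 and 21.2 to 30.8 CPM, against 1911 to 2601 and 47.2 to 55.7 CPM).

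Of 7 tested regulators of IGF genes, 0 rose and 3 fell in each treatment: H19, Plagl1 and Igf2bp3. Over all genes 15.9% rose and 14.8% fell with WM-2474, and 17.5% rose and 17.3% fell with DMSO. H19, the noncoding neighbour of Igf2, had 892, 641 and 683 CPM with WM-2474 at 240 h, against 1957, 2601 and 2189 CPM at 96 h. With DMSO the values were 607, 556 and 560 CPM at 240 h, against 1911, 2424 and 2293 CPM at 96 h. It fell by 1.61 with WM-2474 (SE 0.16, adjusted p = 7.03e-05, edgeR) and by 1.94 with DMSO (SE 0.16, adjusted p = 2.06e-05) on the log2 scale, beside the -1.73 and -2.01 of Igf2. The ratio of H19 to Igf2 CPM overlapped between the times, at 1.98 to 2.56 at 240 h, against 1.96 to 2.37 at 96 h. Plagl1, an imprinted zinc finger factor known in the mouse to activate Igf2 and H19, had 30.8, 22.2 and 24.1 CPM with WM-2474 at 240 h, against 53.1, 55.7 and 50.1 CPM at 96 h. With DMSO it had 23.8, 22.8 and 21.2 CPM at 240 h, against 47.2, 51.6 and 48.4 CPM at 96 h. Libraries of the 2 times did not overlap, and the log2 fold change was -1.06 ± 0.09 with WM-2474 and -1.14 ± 0.09 with DMSO. Igf2bp3, which binds Igf2 and other mRNAs, was at -0.29 ± 0.05 with WM-2474 and -0.25 ± 0.05 with DMSO. Lin28b, the 1 listed regulator that was not tested, had at most 6 counts in a library.

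Downstream of the receptors the listed genes went both ways. Of 10 tested adaptors and docking proteins, 3 rose and 3 fell with WM-2474, and 2 rose and 4 fell with DMSO. All tested genes likewise went both ways: 15.9% rose and 14.8% fell with WM-2474, and 17.5% rose and 17.3% fell with DMSO. Irs2, a docking protein of the IGF1 and insulin receptors, had 13.2 to 17.5 CPM at 240 h, against 24 to 27.4 CPM at 96 h (log2 -0.68 ± 0.10 with WM-2474 and -0.78 ± 0.10 with DMSO). Grb10, an imprinted inhibitor of both receptors, was at -0.30 ± 0.04 and -0.32 ± 0.04, and the adaptor Shc1 at -0.21 ± 0.04 and -0.29 ± 0.04, with WM-2474 and DMSO in this order. The phosphatase gene Ptpn11 rose by 0.23 ± 0.05 with WM-2474 and 0.22 ± 0.05 with DMSO, and Gab1, its docking partner, by 0.28 ± 0.07 and 0.22 ± 0.07. On library totals without TMM factors 0 adaptors rose in either treatment. The rise of Gab1 with DMSO was lost without DMSO 96 h replicate 1 or 3 (adjusted p = 0.0609 and 0.0849, edgeR) or DMSO 240 h replicate 3 (0.161), with DESeq2 (0.0672) and on library totals (0.328). Without DMSO 96 h replicate 3 or DMSO 240 h replicate 3, 1 adaptor rose with DMSO. Irs4 had at most 2 counts in a library.

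Of 18 genes of the PI3K and AKT branch, all tested, 3 rose and 2 fell with WM-2474, and 4 rose and 4 fell with DMSO. The shares over all genes were 15.9% higher and 14.8% lower with WM-2474, and 17.5% and 17.3% with DMSO. Rheb, the activator of the mTOR complex, rose by 0.32 ± 0.05 with WM-2474 and 0.27 ± 0.05 with DMSO (adjusted p = 3.79e-05 and 0.000207, edgeR). Pik3cb, a catalytic PI3K subunit, had 11.5 to 14 CPM at 240 h, against 16.8 to 18.9 CPM at 96 h (log2 -0.51 ± 0.10 with WM-2474 and -0.47 ± 0.09 with DMSO). The counts changed with single libraries. With WM-2474, 1 gene rose when either WM-2474 96 h replicate 3 or replicate 2 of WM-2474 at 240 h was left out, while 1 fell without WM-2474 240 h replicate 2 and 4 fell without WM-2474 240 h replicate 1. With DMSO, 1 rose without DMSO 96 h replicate 3 and 2 rose without DMSO 96 h replicate 2 or DMSO 240 h replicate 1. Also with DMSO, 1 fell without DMSO 96 h replicate 2 or 3 or DMSO 240 h replicate 2 or 3, and 2 fell without DMSO 240 h replicate 1. On library totals without TMM factors 1 rose and 6 fell with WM-2474, and 1 rose and 7 fell with DMSO.

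Of the 42 tested genes of these lists, 0 passed the threshold between WM-2474 and DMSO at 240 h or at 96 h when all 12 libraries were fitted without a replicate block by edgeR, DESeq2 or limma-voom. At an unadjusted p under 0.05 edgeR found 6 of them at 240 h and 1 at 96 h, where 8.14% and 2.1% of all genes had such a p. In a fit of the 6 libraries at 240 h with the replicate number as a block, H19 (0.35, adjusted p = 3.81e-05, edgeR) and Irs1 (0.23, adjusted p = 0.0449) were among 79 higher and 12 lower genes of 12777 tested. The smallest p at 240 h in each list were those of Irs1 (log2 0.23 ± 0.07, adjusted p = 0.412, edgeR), Pik3r2 (0.16 ± 0.06, adjusted p = 0.534), Stc2 (0.25 ± 0.10, adjusted p = 0.538) and H19 (0.36 ± 0.16, adjusted p = 0.609). H19 libraries at 240 h, 892, 641 and 683 CPM with WM-2474 and 607, 556 and 560 CPM with DMSO, did not overlap, like those of Igf2. At 96 h the smallest p was that of Stc1 (0.34 ± 0.12, adjusted p = 1, edgeR).

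For each member the gene with the most similar pattern was sought among 13315 other tested genes, by Pearson's r of log2 CPM over the 12 libraries, which share their times, treatments and depths. The closest were Ackr3, a chemokine scavenger receptor, for Igf2 (r = 0.994), the junction protein gene Jup for Igfbp7 (0.994), Ttc28 for Igf2r (0.981), the collagen gene Col14a1 for Igfbp2 (0.968), the chemokine gene Cxcl5 for Igfbp4 (0.966) and Fkbp5, a glucocorticoid-induced chaperone gene, for Igfbp5 (0.964). For the other members they were Npc2 for Igfbp3 (0.930), Mau2 for Igf1 (0.925), the actin crosslinker gene Flnc for Igf1r (0.925) and Dpy19l1 for Igfbp6 (0.850). H19 was at 0.993 with Igf2. Mean levels of Ackr3 were 18.3 CPM at 240 h and 47.7 CPM at 96 h, and those of Jup 181 and 116 CPM. Among the members, Igf2 was most alike to Igfbp4 (0.910) and least to Igfbp7 (-0.921), and Igf2r was most alike to Igfbp7 (0.921).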

How the data were processed

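RNA was sequenced from 12 libraries. The authors deposited raw counts per gene with each gene's exon length; per the submitters' processing notes they came from featureCounts on mm10, and per the labels' protocols from a stranded mRNA kit. For aligner, versions, annotation, strand and multiple mapping the sources used here give nothing. Entries without an identifier (874 of 27179, 0.547 to 0.648% of counts) were left out, and 25275 of 26305 identifiers (96.1%) were named with GRCm38.p6. Genes were filtered with filterByExpr (13499 kept). edgeR 4.0.16 (R 4.3.3, TMM, robust quasi-likelihood F test, 1 coefficient per group, all 12 libraries) gave two-sided p-values, adjusted within each contrast; the script was tested on simulated data. Values beside log2 fold changes are standard errors, those beside RPKM standard deviations, and intervals are at 95%. The members and gene lists were chosen with earlier results of these data known.

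Named genes were all members and, per list and comparison, up to 3 rising and 3 falling genes with the smallest p. Replicate pairs differed beyond sampling noise (chi-square per degree of freedom 2.05 to 5.25). Same-numbered libraries of both treatments deviated together at 96 h (correlations 0.301, 0.235 and 0.191), so the numbers pair them there by this check of the data. At 240 h the correlations were weaker, though each library was again most alike to the one with its own number. Alternatives were RLE factors, library totals, 2 other filters, DESeq2 1.42.0, limma-voom 3.58.1, the replicate number as a block, only the libraries compared, and libraries left out; for genes beside the members these were added after seeing the data. RefSeq gave places and promoters, and shared words came from GENCODE transcripts.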

Additional observations from a re-analysis of the deposited data

How the results depend on the processing

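Of 18 member changes called, 355 of 382 alternative values kept direction and call, 26 lost the call and 1 changed sign: on library totals Igf1r over both treatments was at -0.02 and 2 members in place of 4 rose with time. Library totals moved the median of all genes by -0.13 with WM-2474 and -0.12 with DMSO between times, and the genes that rose and fell were 1097 and 4391 with WM-2474 and 1190 and 4381 with DMSO, against 2147 and 1999, and 2364 and 2330, with TMM. Over both treatments they were 1536 and 5996, against 3102 and 3181. Between WM-2474 and DMSO at 240 h, 4 genes rose and 0 fell, against 79 and 12 with the block on the 6 libraries compared, 15 and 0 on those libraries without it, 7 and 0 with the block on all 12, 39 and 8 with no filter, 11 and 0 with DESeq2 and 7 and 0 with limma-voom; with single libraries left out 0 to 11 rose and 0 to 12 fell. Igf2, Igf2r, Igfbp5 and Igfbp7 kept their time calls in 22 of 22 alternatives in each treatment. Of 52 member results not called, 11 of 1098 alternative values passed (10 for Igfbp3, and Igfbp2 over both treatments with the replicate block, 0.70, adjusted p = 0.0299, edgeR), and 70 changed sign without a call. No member was called between WM-2474 and DMSO under any alternative. Among 26 other named genes, 870 of 946 called values were kept and 75 lost; Gsk3b with WM-2474 was at -0.00 on library totals, against 0.13. With the replicate number as a block, Igfbp3 with WM-2474 passed (0.44, adjusted p = 0.0173, edgeR), and no treatment call of a member changed. At 240 h same-numbered libraries of both treatments correlated weakly (0.0971, 0.114 and 0.0397), yet 6 of 6 samples there correlated best with their own number. Across times this held for 6 of 6 samples with DMSO and 4 of 6 with WM-2474. In a block fit of the 6 libraries at 240 h alone, H19 (0.35, adjusted p = 3.81e-05, edgeR) and Irs1 (0.23, adjusted p = 0.0449) passed between WM-2474 and DMSO. The cause of these changes was not tested. Depth limits Igf1 most, at 43 to 228 counts per library.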
